A study of Mus musculus with 2 samples.

Results

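The optic nerve is wrapped in meninges, layers of connective tissue whose fibroblasts secrete matrix, retinoic acid and barrier proteins. The 10 genes listed here are associated with these fibroblasts: the small leucine-rich proteoglycan genes *Dcn*, *Lum*, *Ogn* and *Fmod*, the transcription factor gene *Foxc1*, the retinoic acid genes *Aldh1a2* and *Crabp2*, the solute carrier genes *Slc6a13* and *Slc22a6*, and the prostaglandin D synthase gene *Ptgds*. Their rows were taken by gene symbol, with no threshold on a measured value, and the set was chosen with earlier results of these data known. All 10 were found, out of 23951 gene symbols present in both libraries, and all 10 were among the 14199 genes that passed the filter on low values (FPKM of 1 or more in either library). FPKM scales the fragments of a gene by its transcript length and by the depth of the library, so levels can be set side by side between genes of different length.

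The RNA came from optic nerves at P12 (postnatal day 12). The control mice carried 1 floxed *Tcf7l2* allele and Olig1-Cre (genotype Tcf7l2 c/+; OLig1-cre), and the mutant mice carried floxed alleles on both chromosomes and Olig1-Cre (Tcf7l2 c/c; OLig1-cre, called *Tcf7l2*ΔHMG here). Cre was thus present in both groups, driven by *Olig1* regulatory sequence, which is active in the oligodendrocyte lineage and is not a marker of meningeal fibroblasts. There was 1 library per genotype, and the number of animals behind each is not stated, and whether the meninges were left on the nerve is not stated either. No difference below thus has a replicate check and no p-value is given. The intervals quoted are the Cufflinks confidence intervals of each library, which cover uncertainty within that library and not the spread between animals.

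In the meninges the small leucine-rich proteoglycans bind collagen fibrils and set their spacing and growth. Retinoic acid is made by aldehyde dehydrogenases and carried to its nuclear receptors by binding proteins, and the meninges are a known source of it for the developing brain. The arachnoid layer forms a barrier that expresses organic anion and amino acid transporters. Lipocalin-type prostaglandin D synthase, the product of *Ptgds*, makes prostaglandin D2 and is secreted into cerebrospinal fluid. It is made by meningeal cells and also by oligodendrocytes.

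Depth was estimated from the interval bounds, at 27624000 fragments for the control library and 39938000 for the mutant library. At these depths 3 fragments on 1 kb correspond to 0.109 and 0.0751 FPKM. *Tcf7l2* itself was at 17.8 FPKM in control nerve and 14.6 FPKM in mutant nerve. This value does not check the genotype, because the deletion removes the exon for the DNA-binding domain and a shortened transcript may remain. Rows with no gene name took 70.7% of all FPKM in the control table and 80.7% in the mutant table. Some short unnamed rows have an FPKM far above their own interval, such as a row of 69 bases in the control at 1575 FPKM (interval 3.15 to 12.1). How much such rows add to these shares was not tested, so a scaling that counts unnamed rows is itself uncertain. Rescaling all rows to a common sum, an alternative to FPKM as deposited, lowered the median log2 ratio of all genes from 0.047 to −0.63, and values relative to that median are given where they matter.

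All 10 genes were higher in *Tcf7l2*ΔHMG optic nerve in FPKM as deposited, and 8 of 10 after the rescaling of all rows. In that scaling the median log2 ratio of all genes was −0.63, and 54.4% of genes were lower by more than 1.5-fold. The values that follow in this paragraph are those of FPKM as deposited. The log2 ratio, taken as mutant over control after 0.1 was added to each FPKM, ran from 0.28 for *Lum* to 1.13 for *Crabp2* with a median of 0.75, against a median of 0.047 over all genes tested. Of all genes tested, 54.6% were higher in the mutant. Of the 10 genes 9, every gene but *Lum*, passed a fold change of 1.5, the cutoff used in the study and the meaning of "rose" and "fell" below. Among all genes tested 15.4% passed that cutoff upward and 8.52% downward. *Foxc1*, *Crabp2* and *Ptgds* passed 2-fold, as 6.87% of genes did. The Cufflinks intervals of the libraries were apart for all 10, but they were apart for 52.4% of genes tested, and the 9 genes that rose with intervals apart compare with 13.6% of all genes. In bulk tissue, more cells of a type and more RNA per cell cannot be told apart.

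These ratios lie inside the range of the whole table. From the 5th to the 95th percentile, log2 ratios of all genes ran from −0.83 to 1.18, and none of the 10 was above 1.18. When each gene was compared with the 1420 genes of its own expression class (10 classes of equal size by mean level), *Foxc1* alone was above the 95th percentile, with 3.59% of its class higher. After the rescaling of all rows none of the 10 passed 1.5-fold, and *Lum* and *Aldh1a2* turned to −0.39 and −0.033. Relative to the median of all genes in that scaling, the 10 genes ran from 0.24 to 1.09 with a median of 0.71, and 9 were past 1.5-fold.

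**Figure D1:**
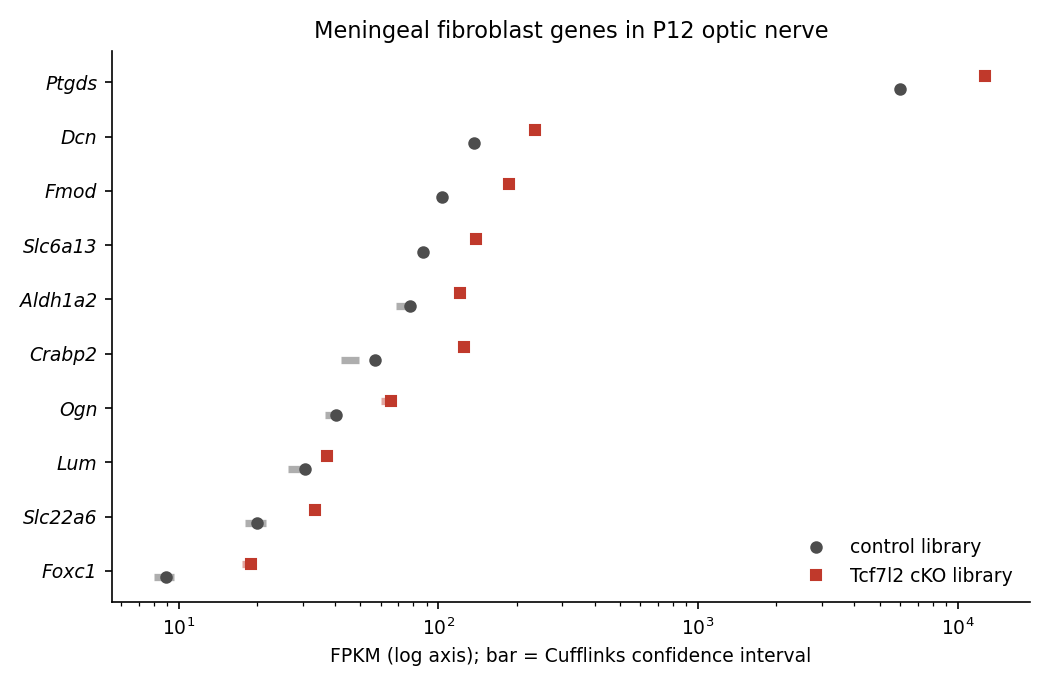
FPKM of each of the 10 genes on a log axis in the control and the *Tcf7l2*ΔHMG (labelled cKO) library, 1 point per library with its Cufflinks interval as a bar. Every mutant point lies to the right of its control point, and *Ptgds* stands far above the other 9, which lie between 8.91 and 235.4 FPKM.

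The proteoglycan genes were led by *Dcn*, which encodes decorin, a collagen-binding proteoglycan that also binds TGF-β. *Dcn* (mm9 chr10:96942134-96980796) was at 137.4 FPKM in control nerve (interval 134.2 to 143.1) and 235.4 FPKM in mutant nerve (232.8 to 243.4), a log2 ratio of 0.78. *Fmod*, for fibromodulin, which guides fibril assembly (chr1:135934092-135944854), was at 103.1 FPKM in control nerve (100.8 to 107.2) and 186.6 FPKM in mutant nerve (185.5 to 192.6), a log2 ratio of 0.86. Both mutant intervals lie well above the control intervals, and the ratio of *Dcn* to *Fmod* level stayed close, at 1.33 in control nerve and 1.26 in mutant nerve.

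*Ogn*, for osteoglycin (chr13:49703440-49719869), was at 40.2 FPKM in control nerve (36.5 to 40.5) and 65.4 FPKM in mutant nerve, where the FPKM lies outside its own interval of 60.1 to 64.8. Its log2 ratio was 0.70. *Lum*, for lumican, another fibril-binding proteoglycan (chr10:97028135-97035337), was at 30.5 FPKM in control nerve, above its own interval of 26.4 to 29.9, and at 37.2 FPKM in mutant nerve (35.6 to 39.1). Its log2 ratio of 0.28 was the smallest of the 10, with 30.1% of genes tested higher. Though *Dcn* and *Lum* are neighbours, 47.3 kb apart, the *Dcn* level was 4.50 times the *Lum* level in the control and 6.33 times in mutant nerve. Summed over the 4 proteoglycan genes, FPKM was 311.2 in control nerve and 524.5 in mutant nerve.

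Of 13 other proteoglycan genes of the family, 8 passed the filter, 4 of these rose and none fell, and the median log2 ratio of the 8 was 0.60. After the rescaling of all rows the 4 that rose were the only ones of the 8 still higher. In that scaling 7 of the 8 lay above the median of all genes. *Prelp*, for prolargin, was at 34.8 FPKM in control nerve and 62.3 in mutant nerve (log2 ratio 0.84), *Podn*, for podocan, at 6.72 and 13.4 FPKM (0.98), and *Ecm2* at 8.25 and 13.8 FPKM (0.74). The fourth was *Chad*, for chondroadherin, named after its value was seen, whose intervals overlapped. *Bgn*, for biglycan, the most abundant of the 8, was at 187.1 FPKM in control nerve and 270.7 in mutant nerve, a log2 ratio of 0.53 that did not pass the cutoff. *Aspn*, for asporin, was the single one lower in the mutant, at 1.11 and 0.910 FPKM.

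Family genes that share a chromosomal cluster had unlike levels. In the *Dcn* cluster, *Kera*, for the corneal proteoglycan keratocan, was listed at 0 in control nerve and at 0.014 FPKM in mutant nerve, and *Epyc*, for the cartilage proteoglycan epiphycan, was at 0.238 and 0.439 FPKM. Next to *Fmod*, *Prelp* lies 116.1 kb away, and *Optc*, for opticin of the eye, lies 129.5 kb away at 0.270 and 0.551 FPKM. *Omd*, for osteomodulin, 15.5 kb from *Ogn*, was at 9.38 and 13.7 FPKM. *Aspn* and *Ecm2* lie 40.5 and 73.6 kb from *Ogn*. The *Ogn* row lies within that of *Cenpp*, a centromere protein gene at 5.41 and 8.25 FPKM. In the control library the rows of *Omd*, *Aspn* and *Ecm2* lie within it as well. Whether counting used strand is not stated.

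**Figure D2:**
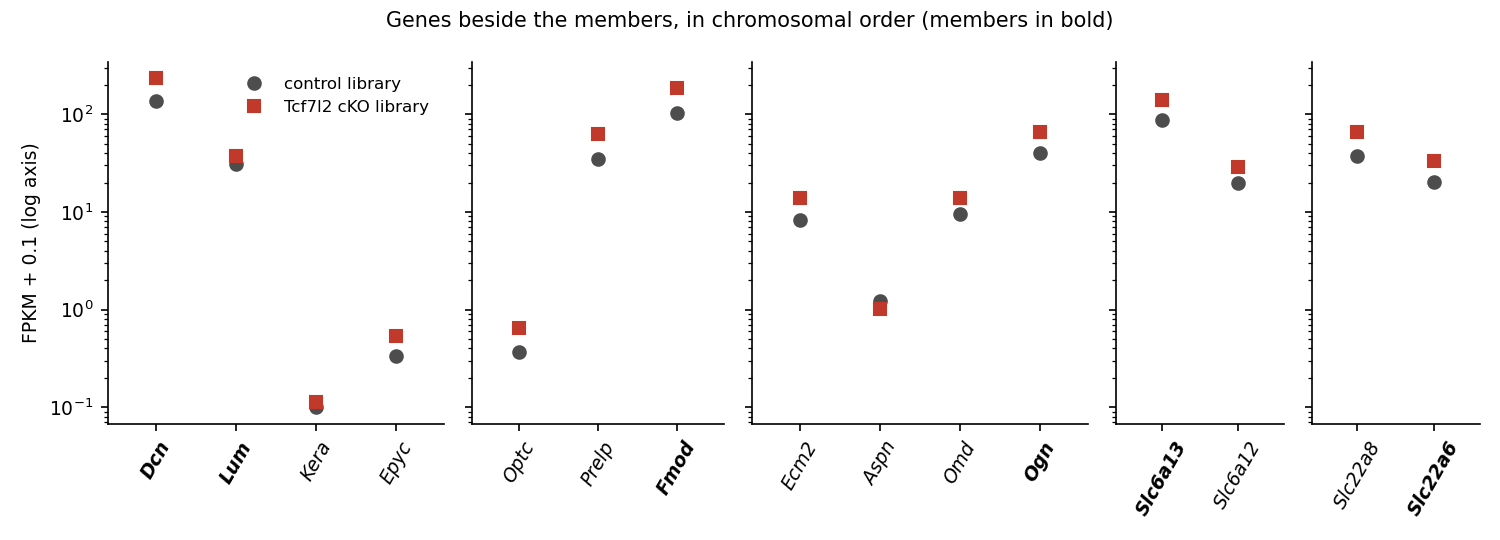
FPKM plus 0.1 (log axis) of the listed genes in the chromosomal clusters of *Dcn*, *Fmod*, *Ogn*, *Slc6a13* and *Slc22a6* in both libraries, 1 point per library. *Kera*, listed at 0 in control nerve, is drawn at the lower edge. *Kera*, *Epyc* and *Optc* stay below 1 FPKM in both libraries beside neighbours at 30.5 to 235.4 FPKM.

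*Foxc1* encodes a forkhead factor required for the meninges to form. It was the lowest of the 10 genes in both libraries (chr13:31898515-31902504), at 8.91 FPKM in control nerve (8.002 to 9.57) and 19.04 FPKM in mutant nerve (17.5 to 19.4), a log2 ratio of 1.09. The mutant interval starts at more than 1.5 times the upper control bound. Its close relative *Foxc2* was at 9.76 FPKM in control nerve and 28.5 FPKM in mutant nerve, a log2 ratio of 1.54. *Foxc1* was thus at 0.912 of the *Foxc2* level in the control and at 0.668 of it in the mutant.

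Other transcription factor genes of meninges moved the same way. All 17 of 18 listed that passed the filter were higher in the mutant (11 of 17 after the rescaling of all rows). Of the 17, 13 rose, and the median log2 ratio was 0.77. After the rescaling all 17 lay above the median of all genes. *Zic1* and *Zic2*, zinc finger factors of meninges and cerebellum, were at 31.1 and 23.5 FPKM in control nerve and at 48.3 and 50.02 FPKM in mutant nerve. *Foxd1* was at 7.50 and 17.0 FPKM, a log2 ratio of 1.17, and *Prrx2*, a homeobox factor of mesenchyme, at 12.8 and 23.0 FPKM (0.84). *Tbx18*, which marks mural cells and mesenchyme, was named after its value was seen as the smallest ratio of the list, with 7.14 and 7.69 FPKM and a log2 ratio of 0.11.

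*Aldh1a2* encodes the dehydrogenase that makes retinoic acid from retinaldehyde (chr9:71063596-71144050). Its level was 77.4 FPKM in control nerve, above its own interval of 68.7 to 74.4, and 120.6 FPKM in mutant nerve (118.6 to 125.1), a log2 ratio of 0.64. *Crabp2*, for a protein that carries retinoic acid to its nuclear receptors (chr3:87752615-87757294), was at 57.2 FPKM in control nerve and 125.6 FPKM in mutant nerve (121.6 to 131.7), a log2 ratio of 1.13. The control FPKM of *Crabp2* lies above its interval of 42.1 to 49.3, and with interval midpoints in place of FPKM its log2 ratio was 1.47. *Aldh1a2* was thus at 1.35 times the *Crabp2* level in the control and at 0.960 of it in the mutant, where their intervals overlap. This is the only place where the order of the 10 genes differed between the libraries.

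Of 17 other genes of retinoid handling, 13 passed the filter, 8 rose, 2 fell, and the median log2 ratio was 0.68. The number higher in the mutant was 10 of 13, and 7 after the rescaling of all rows. In that scaling 10 of the 13 lay above the median of all genes. *Aldh1a1*, for a second retinaldehyde dehydrogenase, whose row carries another symbol as well in both libraries, was at 82.7 FPKM in control nerve and 130.1 in mutant nerve (log2 ratio 0.65). *Aldh1a2* held a similar ratio to *Aldh1a1*, 0.937 in control nerve and 0.926 in mutant nerve. *Stra6*, for the retinol uptake receptor, was at 22.6 and 43.7 FPKM (0.95), and *Rbp4*, for the retinol carrier of plasma, at 17.9 and 34.9 FPKM (0.96). *Cyp26b1*, which degrades retinoic acid, and *Dhrs3*, which turns retinaldehyde back to retinol, also rose, at log2 ratios of 0.70 for each. *Rxrg*, a retinoid receptor gene also used in oligodendrocytes, fell from 4.87 to 2.85 FPKM. *Rxrb* was at 18.5 FPKM in control nerve and listed at 0 in mutant nerve, an exact 0 that can be a failed estimate, so it is counted among the 2 that fell but no fold is given.

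The carriers *Slc6a13* and *Slc22a6* were listed as genes of the meninges, and which meningeal cells carried their RNA was not tested. *Slc6a13* encodes a GABA and taurine transporter (chr6:121250314-121287736), and its level was 86.9 FPKM in control nerve (84.2 to 90.9) and 139.5 FPKM in mutant nerve (137.3 to 144.7), a log2 ratio of 0.68. *Slc22a6* encodes an organic anion transporter (chr19:8692429-8702789), and was at 20.1 FPKM in control nerve (17.99 to 21.7) and 33.4 FPKM in mutant nerve (32.4 to 34.8), a log2 ratio of 0.73. The carriers moved by like amounts, and *Slc6a13* was at 4.33 times the *Slc22a6* level in the control and 4.18 times in mutant nerve.

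Their neighbours on the chromosome were also detected. *Slc6a12*, for the betaine and GABA transporter 5.32 kb from *Slc6a13*, was at 19.6 FPKM in control nerve and 28.9 in mutant nerve (log2 ratio 0.56, short of the cutoff). *Slc22a8*, for a second organic anion transporter 6.10 kb from *Slc22a6*, was at 37.4 and 66.0 FPKM (0.82). All 15 listed relatives and transporters of meninges passed the filter and were higher in the mutant (10 of 15 after the rescaling of all rows). Of the 15, 11 rose, and the median log2 ratio was 0.90. After the rescaling all 15 lay above the median of all genes. *Slc6a20a*, for an imino acid transporter, had a row of its own at 36.5 FPKM in control nerve but shared a row at 141.7 FPKM with its neighbour *Slc6a20b* in mutant nerve, so its ratio does not compare like with like. Without it 10 of 14 rose, with a median log2 ratio of 0.87. The greatest ratios of the others were those of *Slc26a7*, for an anion exchanger, at 4.59 and 17.6 FPKM (1.91), and of *Slc47a1*, for an organic cation exporter, at 20.1 and 60.4 FPKM (1.59). *Slc13a4*, for a sulfate transporter, was the most abundant at 130.5 and 188.1 FPKM, with a log2 ratio of 0.53 that missed the cutoff.

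*Ptgds* was by far the most abundant of the 10 genes (chr2:25322232-25325269), at 6009 FPKM in control nerve and 12779.7 FPKM in mutant nerve, a log2 ratio of 1.09. The FPKM lies below its own interval in both libraries, 6060 to 6164 in control nerve and 12957 to 13079.5 in mutant nerve. Among named genes it ranked 4 in control nerve and 1 in mutant nerve. It made up 1.38% of the FPKM of named rows in the control and 2.79% in the mutant, whereas the other 9 genes together made up 0.129% and 0.210%. Without *Ptgds* the 9 genes summed to 561.6 FPKM in control nerve and 962.6 FPKM in mutant nerve, a ratio of 1.71.

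Markers of oligodendrocytes, which also make *Ptgds*, went the other way: all 8 listed were lower in the mutant, 6 fell, and their summed FPKM was 31579 in control nerve and 18087 in mutant nerve. The *Ptgds* level was 0.354 of that of *Mbp*, for myelin basic protein, in the control and 1.097 times it in the mutant. Which cells carried the *Ptgds* RNA was not tested.

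Other genes of the prostaglandin pathway were far lower than *Ptgds*. Of 18 listed, 13 passed the filter and 11 of those were higher in the mutant (7 after the rescaling of all rows). Of these 8 rose and none fell, and the median log2 ratio was 0.66. After the rescaling 11 of the 13 lay above the median of all genes. *Hpgds*, for the other prostaglandin D synthase, was at 3.06 FPKM in control nerve and 6.06 in mutant nerve (log2 ratio 0.96), so that *Ptgds* was at 1964 and 2109 times its level. *Ptgdr*, for the prostaglandin D2 receptor, was at 1.23 and 3.14 FPKM (1.29), and *Ptges*, for an inducible prostaglandin E synthase, at 3.15 and 5.04 FPKM (0.66). The most abundant of the list were *Ptges3*, for a cochaperone with prostaglandin E synthase activity, at 55.0 and 46.6 FPKM, and *Akr1b3*, for aldose reductase in a row shared with another symbol in both libraries, at 51.0 and 70.3 FPKM, and neither passed the cutoff. *Ptgs1*, for cyclooxygenase, was at 6.47 and 6.36 FPKM. The count of 8 rests on low genes: it was 5 with a pseudocount of 1 and 3 among genes with an FPKM of at least 5.

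**Figure D3:**
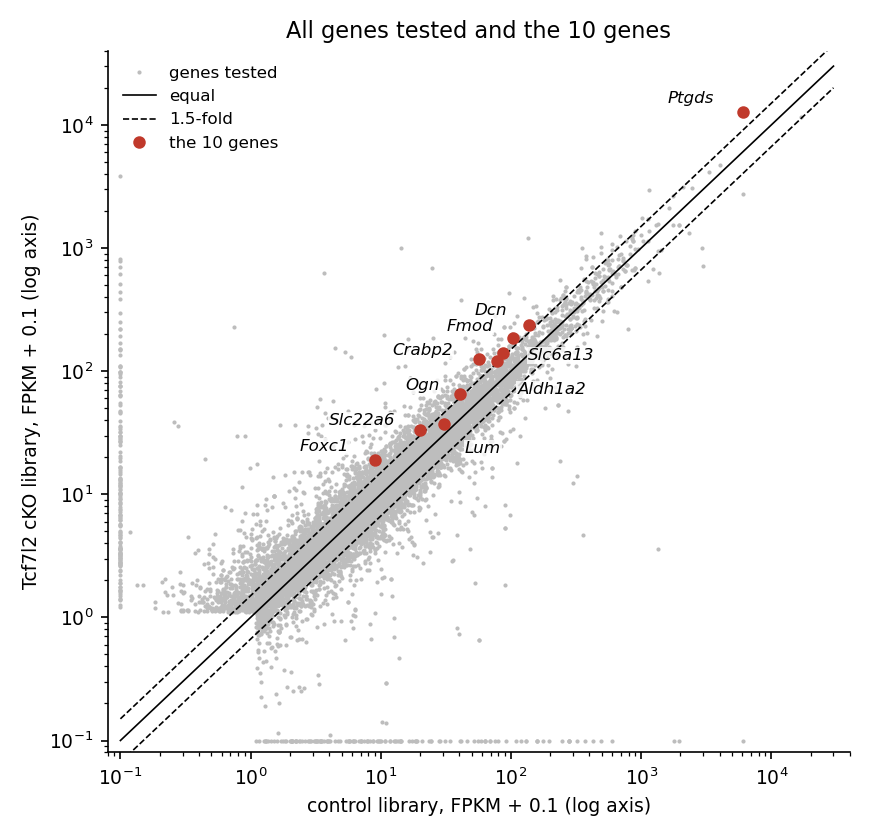
FPKM plus 0.1 in control nerve (x, log axis) against the mutant library (y, log axis) for all 14199 genes tested in grey and the 10 genes in red, with lines for equal values and for 1.5-fold; grey points on the left and lower edges are genes listed at 0 in a library. Of the 10 genes 9 lie above the upper 1.5-fold line and *Lum* lies between the equal line and it, within the cloud of other genes.

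Set in order of level, the 10 genes ran *Ptgds*, *Dcn*, *Fmod*, *Slc6a13*, *Aldh1a2*, *Crabp2*, *Ogn*, *Lum*, *Slc22a6* and *Foxc1* in the control. The mutant order was the same except that *Crabp2* stood before *Aldh1a2*. Neighbours in these orders had intervals apart in both libraries apart from *Crabp2* and *Aldh1a2* in the mutant. The highest level was 674.7 times the lowest in the control and 671.1 times in mutant nerve.

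Promoter sequences are shown for 4 of the genes, since genes with similar log2 ratios had unlike base composition there. RefSeq windows (GRCm38.p6, 250 bases before to 50 after each start) were at hand for 7 of the 10 genes, with 9 windows in all. These are the last 100 bases before the start, 5′ to 3′ on the strand of the gene, with CG pairs in capitals. *Foxc1* lies at chr13:31806546-31806645 (plus strand), *Aldh1a2* at chr9:71215689-71215788 (plus), *Ogn* at chr13:49607915-49608014 (plus) and *Ptgds* at chr2:25469750-25469849 (minus).
Foxc1: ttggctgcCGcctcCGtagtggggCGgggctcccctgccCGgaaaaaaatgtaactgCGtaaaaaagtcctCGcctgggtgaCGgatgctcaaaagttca
Aldh1a2: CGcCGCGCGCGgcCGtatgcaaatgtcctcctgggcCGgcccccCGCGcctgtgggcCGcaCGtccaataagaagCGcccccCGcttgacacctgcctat
Ogn: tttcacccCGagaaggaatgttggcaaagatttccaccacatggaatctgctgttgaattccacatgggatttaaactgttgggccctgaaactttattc
Ptgds: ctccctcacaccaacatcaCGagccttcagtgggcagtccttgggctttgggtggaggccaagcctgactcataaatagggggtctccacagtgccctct

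Over the whole windows, *Aldh1a2* held 50 CG pairs and *Foxc1* held 32, and 99.1% and 90.5% of all 32851 promoter windows held fewer. *Ogn* held 4, *Fmod* 3, and *Slc22a6* and *Ptgds* 2 each, against a median of 7 over all windows, and the 3 windows of *Slc6a13* held 11, 7 and 2. *Foxc1* and *Ptgds* thus had the same log2 ratio, 1.09, with 32 and 2 CG pairs in these windows.

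A pair of short motifs was searched on both strands of these windows: TCAAAG, the core that TCF/LEF factors such as Tcf7l2 bind, and AGGTCA, the core of the sites of nuclear receptors, among them retinoic acid receptors. TCAAAG was in 16.0% of all promoter windows and AGGTCA in 16.3%. Each was in 1 of the 9 windows, and it was the same one, the third start of *Slc6a13*. The reverse complements lie there in overlap, sharing 3 letters. The stretch below is chr6:121303392-121303451 (plus strand), with the letters of both motifs in capitals.
Slc6a13: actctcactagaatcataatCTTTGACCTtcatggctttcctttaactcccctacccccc

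The match is a description of letters and not of binding, and no file here measures binding at these windows.

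A wider list of 25 genes associated with meninges was also read. This list too was chosen with earlier results of these data known, so its counts are a description and not an independent check. All 25 were at 1 FPKM or more in both libraries. All were higher in the mutant (18 of 25 after the rescaling of all rows), 19 rose, and the median log2 ratio was 0.86. Of all genes tested in FPKM as deposited, 54.6% were higher in the mutant and 15.4% rose. After the rescaling all 25 lay above the median of all genes. *Igf2*, a growth factor gene of meninges and vessels, was at 685.6 FPKM in control nerve and 1258 in mutant nerve (log2 ratio 0.88), *Mgp*, for matrix Gla protein, at 236.4 and 548.1 FPKM (1.21), and *Igfbp2*, for an IGF-binding protein, at 208.3 and 410.3 FPKM (0.98). *Dpp4*, a peptidase gene of fibroblasts, had the largest ratio of that list, at 7.34 and 35.9 FPKM (2.27), and *S100a6*, for a calcium-binding protein, was at 538.2 and 775.5 FPKM, a log2 ratio of 0.53 that did not pass.

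Broad fibroblast genes, which other cells also use, had a lower median. One of them, *Pdgfra*, served in the study as the marker of oligodendrocyte precursors. Of 9 listed, 6 were higher and 3 lower in the mutant (2 and 7 after the rescaling of all rows). In that scaling 6 of the 9 lay above the median of all genes. *Fn1*, for fibronectin, and *Fbln1*, for fibulin, rose, none fell, and the median log2 ratio was 0.27. The 3 lower were *Vim*, *Lama1* and *Pdgfra*, the last in a merged row at 35.9 FPKM in control nerve and 33.6 in mutant nerve. Summed FPKM of the 9 was 2889 in control nerve and 3030 in mutant nerve. Most of that sum was *Vim*, at 1762 FPKM in control nerve and 1533 in mutant nerve. Which cells carried the RNA of these genes was not tested, so the list does not stand for fibroblasts alone. *Col1a1* was at a log2 ratio of 0.49 and *Col3a1* at 0.09.

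**Figure D4:**
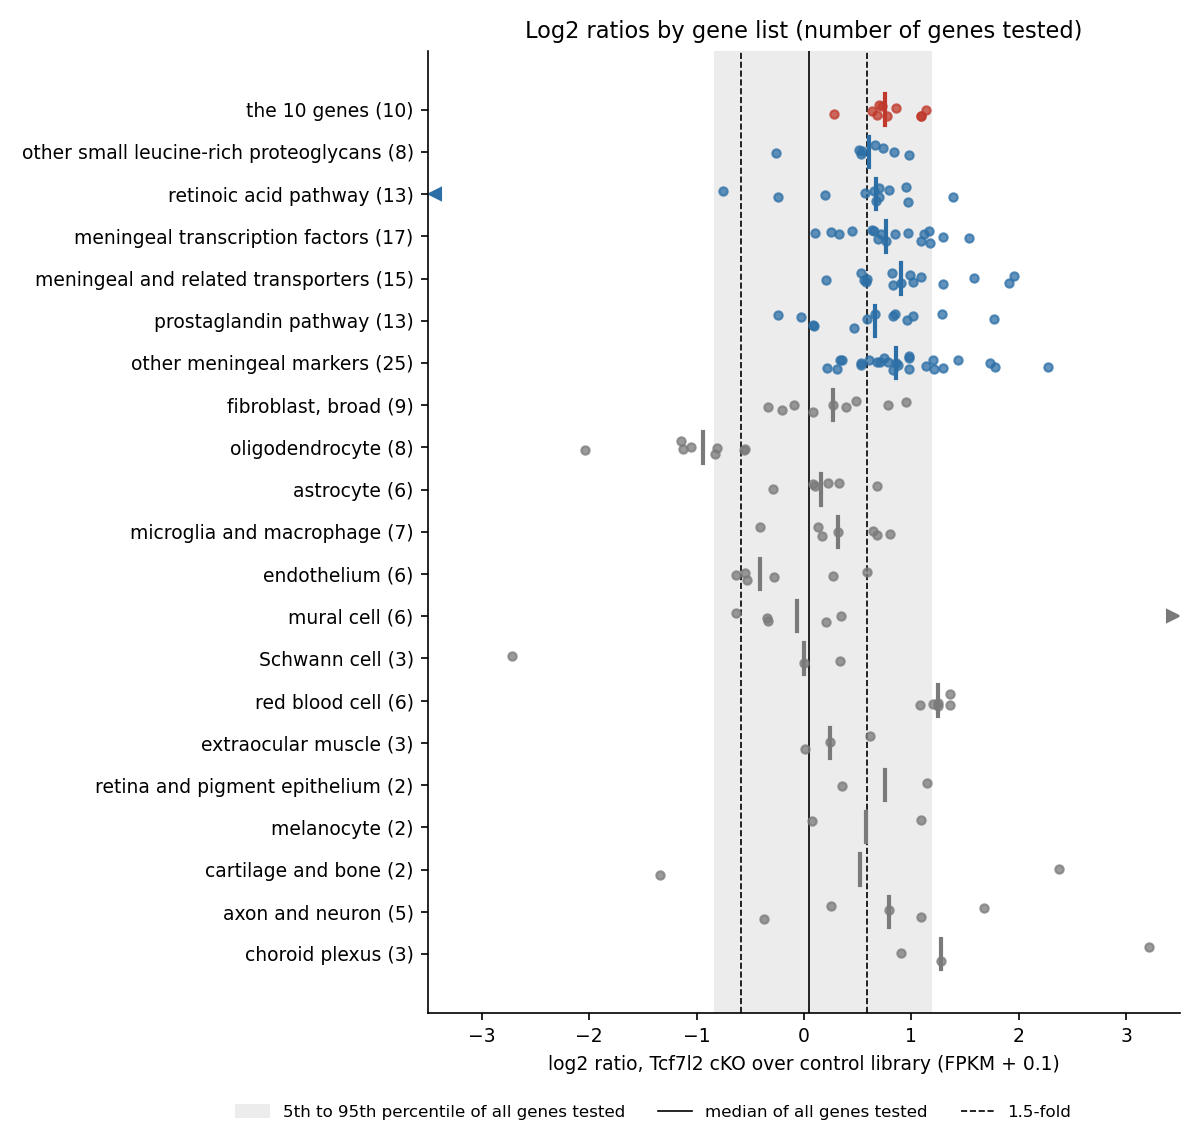
Log2 ratio of mutant over control for each gene of the 10 and of the lists of related genes and cell type markers, 1 point per gene, with the median of each list as a bar; triangles mark *Rxrb* and *Tagln*, each listed at 0 in 1 library and lying beyond the axis. The lists of related genes have medians between 0.60 and 0.90, the broad fibroblast list 0.27 and the oligodendrocyte list −0.94.

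Markers of other cells that a dissected optic nerve could hold also differed between the libraries. All 6 red blood cell genes tested rose with a median log2 ratio of 1.25, from a summed 162.9 FPKM in control nerve to 402.7 in mutant nerve, although several haemoglobin symbols share merged rows and are not independent. *Alas2*, which starts haem synthesis in red cells, was among them. Choroid plexus markers summed to 10.7 FPKM in control nerve and 26.4 in mutant nerve, all 3 tested rose, and *Ttr*, the defining gene of that tissue, was at 0.107 and 1.82 FPKM. Axon and neuron markers summed to 26.1 and 35.1 FPKM, with 3 of 5 past the cutoff upward. Of all genes tested, 15.4% passed the cutoff upward and 8.52% downward. After the rescaling of all rows, all 6 red blood cell genes, all 3 choroid plexus genes and 3 of 5 axon and neuron genes were higher.

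Astrocyte markers summed to 4882 FPKM in control nerve and 5701 in mutant nerve with 1 of 6 past the cutoff upward, and microglia and macrophage markers to 112.8 and 143.3 FPKM with 3 of 7. In FPKM as deposited, 5 of 6 astrocyte genes and 6 of 7 microglia and macrophage genes were higher. After the rescaling of all rows these counts were 1 of 6 and 2 of 7, though 5 and 6 lay above the median of all genes. Endothelial markers summed to 129.8 and 111.2 FPKM, with 1 of 6 past the cutoff upward and 1 downward. Mural markers summed to 89.1 and 104.3 FPKM, but *Tagln*, a smooth muscle gene, was listed at 0 in control nerve, an exact 0 that can be a failed estimate, and at 35.3 FPKM in mutant nerve. Without *Tagln* the mural sum was 69.0 FPKM in mutant nerve, below the control, with none of 5 past the cutoff upward and 1 downward. Schwann cell markers summed to 143.7 and 167.6 FPKM, with 1 of 3 tested past the cutoff downward, and extraocular muscle markers to 16.0 and 19.4 FPKM, with 1 of 3 upward. Retina and pigment epithelium markers summed to 15.9 and 23.8 FPKM with 1 of 2 tested past the cutoff upward, melanocyte markers to 3.27 and 4.71 FPKM with 1 of 2 upward and *Pmel* listed at 0 in both libraries, and cartilage and bone markers to 9.33 and 9.87 FPKM. The 2 tested of the last list went opposite ways: *Col2a1*, for cartilage collagen, fell from 6.60 to 2.55 FPKM and *Bglap*, for osteocalcin of bone, rose from 1.08 to 5.99 FPKM. After the rescaling of all rows, 0 of 6 endothelial, 1 of 6 mural, 0 of 3 Schwann cell and 0 of 3 muscle genes were higher. The retina, melanocyte and cartilage lists each had 1 of 2 higher in that scaling. The part of dissection, cell numbers and blood content in the higher levels of the 10 genes was not tested, and with 1 library per genotype these cannot be told apart from genotype.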

How the data were processed

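RNA-seq of optic nerves at P12 was analysed, with 1 control and 1 *Tcf7l2*ΔHMG library sequenced on an Illumina instrument. The authors used TopHat with its default settings for alignment and Cufflinks for FPKM. The deposited tables give FPKM (fragments scaled by transcript length and library depth), the bounds of the Cufflinks interval and a status per row, and they hold no counts. The submitters' processing notes name the build mm9, and versions are not given in the sources used here. Gene coordinates are the mm9 positions of the files, 1-based, and promoter sequences are from RefSeq GRCm38.p6; the builds were not mixed.

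Merged names were split, rows of a symbol were summed, and a gene was tested where its status was OK in each library and its FPKM was 1 or more in either. The log2 ratio used a pseudocount of 0.1, which understates changes of low genes, and genes past a fold change of 1.5 were counted. With 1 library per genotype no test was possible. The genes named were all 10, up to 6 of the most abundant and 4 further genes past the cutoff of each list of related genes, chromosomal neighbours and *Tcf7l2*. Some genes are not reported here. Single genes of the cell type marker lists were named after their values were seen. The 10 genes and all lists were chosen with earlier results of these data known. The depth was estimated from short unnamed rows (194 in the control, 349 in the mutant), with each bound taken as a whole multiple of 1 fragment. At the depths chosen, 90% of the bounds lay within 0.00082 and 0.00047 of a whole number. The value is near the lowest depth searched that fitted, and whole multiples of it would fit too. Alternatives were other pseudocounts, filters, scalings, handling of rows and the midpoint of the interval. The computation was tested on simulated data. Python 3.11.15, NumPy 2.4.6, pandas 2.3.3 and Matplotlib 3.10.9 were used.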

Additional observations from a re-analysis of the deposited data

Results flagged for a closer look

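Rows with no gene name near the 10 genes lie outside the comparison above. Within 1000 bases of *Foxc1* there was an unnamed row in each library, at 1.63 FPKM in the control (interval 1.15 to 2.10) and 2.51 FPKM in the mutant (1.72 to 2.81), 431 and 342 bases from the gene. It was drawn out because its level was higher than in the control library, and the intervals overlap. Within 1000 bases of *Slc22a6* an unnamed row of 1.70 FPKM (0.530 to 1.77) was present in the mutant, 97 bases past the gene, with none in the control. The estimated depth of the mutant was 1.45 times that of the control, and its part in which rows were assembled was not tested.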

How the results depend on the processing

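Each log2 ratio and the median of the 10 genes were computed under 13 alternatives. Of the 10 genes, 9 passed 1.5-fold in 11 of them, 8 with named rows rescaled, and 0 with all rows, named and unnamed, rescaled to a common sum. In that scaling the median was 0.083, *Lum* was at −0.39 and *Aldh1a2* at −0.033, 3.67% of all genes passed upward and 54.4% downward. The share of FPKM in unnamed rows differed between the libraries, which moves all named genes together. Above 2-fold, 3 genes remained. Under the other alternatives the median ran from 0.68 to 0.77 and all 10 genes were higher. Relative to the median of all genes, the median of the 10 stayed between 0.70 and 0.75 and at least 8 passed 1.5-fold. Counts past 1.5-fold with all rows rescaled were 2 transcription factors, 5 of the wider meningeal list, 0 other proteoglycans, 1 prostaglandin gene, 1 retinoid gene and 4 transporters. In an alternative chosen after seeing the data, the mural marker sum, mutant minus control, turned to −20.1 FPKM without *Tagln*. No paired analysis was possible because each genotype has 1 library.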

Other observations

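Short unnamed rows lie inside *Slc6a13* in both libraries, and their FPKM is far outside their own intervals. In the control a row of 250 bases was at 54.8 FPKM (interval 10.7 to 17.7) and a row of 69 bases at 1575 FPKM (3.15 to 12.1). A row of 155 bases was at 266.1 FPKM in the mutant (16.2 to 24.6). Among named rows with an FPKM above 0, 7.26% in the control and 8.64% in the mutant lay outside their own interval, as did 4 of the 10 genes in the control and 2 in the mutant. These values were not added to that of *Slc6a13*.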
